A study of Mus musculus with 45 samples.

Results

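The mouse Cyp2b genes were followed over liver, kidney and brain in a diet experiment that asked what a cholesterol-rich diet, 2 extracts of the mushroom Ganoderma lucidum and simvastatin do to gene expression. The set held 5 of the 22080 genes of the deposited table, namely Cyp2b9, Cyp2b10, Cyp2b13, Cyp2b19 and Cyp2b23, and each had 1 row. They were taken by gene name, and the family was chosen by the liver level of Cyp2b9, whose difference between the HCD and Control diets was the largest of all genes. That difference, and every difference that uses the same liver arrays of Cyp2b9, is therefore given as a description without a test. For Cyp2b10, Cyp2b13, Cyp2b19 and Cyp2b23 the liver difference of HCD and Control is likewise described, whereas their treated groups were tested against HCD and Control, on arrays shared with that difference.

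Male C57BL/6 mice, 7 weeks old at the start, were kept in 5 diet groups of 8 until day 43. The Control group ate the AIN-93 diet, and HCD was that diet with 0.5% cholesterol. HCD+Gl-1 and HCD+Gl-2 were HCD with 1% of an extract, Gl-1 from mushrooms grown on the usual substrate and Gl-2 from mushrooms grown on substrate that contained acetylsalicylic acid, and HCD+Sim was HCD with 0.03 g of simvastatin per 100 g. Each of the 15 combinations of tissue and diet had 3 Affymetrix arrays of pooled RNA, labelled A, B and C. Pools A and B held different mice, and the study's methods give pool C as their combination, so 3 arrays stood for 2 separate pools at most and the p-values measure the spread between such arrays.

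Cyp2b enzymes are membrane-bound monooxygenases of the endoplasmic reticulum that oxidise steroids, fatty acids and foreign compounds. Cyp2b10 is the classical target of the nuclear receptor CAR (Nr1i3), which binds DNA with RXR and responds to phenobarbital-like compounds, and PXR (Nr1i2) shares many of its targets. Cyp2b9 and Cyp2b13 are known as genes of the female mouse liver that are held low in males by the male pattern of growth hormone release. Cyp2b19 is best known from keratinocytes of the skin.

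The 5 genes lie on chromosome 7, and the sequences next to their starts show how alike the members are there. RefSeq promoter windows (build GRCm38.p6, 250 bases before and 50 after the start, 300 bases in all) were found for 5 of 5 members. The Cyp2b9 and Cyp2b13 windows were 99.3% identical, with 2 substituted positions and no gaps, whereas all other pairs were 62.9% to 73.2% identical, gaps counted as differences. The 250 bases before the start are shown for Cyp2b9 (chr7:26173159-26173408, plus strand), Cyp2b13 (chr7:26061245-26061494, plus strand) and Cyp2b10 (chr7:25897408-25897657, plus strand). Capitals in Cyp2b9 and Cyp2b13 mark the bases by which this pair differs, and capitals in Cyp2b10 mark bases that differ from Cyp2b9 in the alignment.
Cyp2b9: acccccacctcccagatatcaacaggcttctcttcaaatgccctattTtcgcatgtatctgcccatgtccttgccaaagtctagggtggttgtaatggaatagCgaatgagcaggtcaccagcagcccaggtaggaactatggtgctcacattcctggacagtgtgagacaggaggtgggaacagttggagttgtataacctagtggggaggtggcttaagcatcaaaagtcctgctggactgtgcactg
Cyp2b13: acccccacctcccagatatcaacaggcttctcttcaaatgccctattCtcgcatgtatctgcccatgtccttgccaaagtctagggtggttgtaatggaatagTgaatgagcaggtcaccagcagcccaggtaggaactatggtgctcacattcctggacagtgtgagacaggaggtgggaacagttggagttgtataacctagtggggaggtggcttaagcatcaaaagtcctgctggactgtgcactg
Cyp2b10: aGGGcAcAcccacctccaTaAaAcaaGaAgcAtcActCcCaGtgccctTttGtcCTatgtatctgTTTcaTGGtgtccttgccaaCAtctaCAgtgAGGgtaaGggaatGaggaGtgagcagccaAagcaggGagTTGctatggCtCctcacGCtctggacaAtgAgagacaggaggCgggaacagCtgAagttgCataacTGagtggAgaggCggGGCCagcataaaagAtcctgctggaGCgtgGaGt
The hexamer AGGTCA, bound by CAR, PXR and related receptors, was searched on both strands. It occurred once in the windows of Cyp2b9, Cyp2b13, Cyp2b19 and Cyp2b23 and was not found in that of Cyp2b10, against 16.3% of all 32851 promoter windows. In Cyp2b9 and Cyp2b13 its first base lay at -138 from the start in both. TTGCNNAA, a motif of C/EBP factors, was found once in every one of the 5 windows and in 10.8% of all windows. TTCNNNGAA, the motif of STAT factors, was found in none of the 5 and in 8.3% of all windows. A match of letters is a description and not a binding site. Sequence outside the windows was not searched, so a missing match says nothing about sites farther from the start. The windows lie mostly outside the transcript and do not show what the probe sets bind. The probe sequences were not analysed here, so how far the signal of the Cyp2b9 probe set comes from Cyp2b9 alone was not tested.

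All levels below are the deposited log2 intensities, on which a difference of 1 is a doubling of intensity. Probe sets of different genes bind differently, so levels are compared between samples and never between genes. Array medians lay between 6.76 and 6.92 and 2 arrays of a group correlated between 0.985 and 0.997 over genes. The tissue labels matched their marker genes: Alb lay between 13.69 and 13.78 in liver and at most at 7.95 elsewhere, Umod between 12.15 and 12.50 in kidney, and Snap25 between 12.94 and 13.50 in brain. Some liver arrays carried more transcript of other tissues than the rest. The summed level of 8 pancreas acinar genes (log2 of the sum) was 11.14 in pool A, 11.71 in pool B and 9.57 in pool C of HCD+Sim, against at most 9.53 on the other 12 liver arrays, and the sum of 8 skeletal muscle genes was 10.78, 11.20 and 9.71 on these arrays. In liver Control the muscle sum was 10.10 to 10.42, against at most 9.87 under HCD, HCD+Gl-1 and HCD+Gl-2, and 8 squamous epithelium genes summed to 9.53, 10.11 and 8.83. Pool C of HCD+Sim therefore lay far below both A and B, which is not where a mix of them would lie, and over all genes pool C lay between A and B for 20.4% to 35.5% of genes in a group. The squamous sum of liver Control was also lower in pool C than in A and B. The description of pool C as the mix of A and B is uncertain for these groups. With it the reading of 3 arrays as 2 separate pools is uncertain. Pool C lay above both A and B in 3 of 5 liver groups for Cyp2b9 and in 4 of 5 for Cyp2b10. Markers of other cells also differed between HCD and Control. In pools A, B and C the sum of 6 intestine genes was 10.06, 9.97 and 10.29 under Control and 10.48, 10.31 and 10.59 under HCD, and that of 4 Kupffer cell genes was 10.76, 10.84 and 10.58 under Control and 10.44, 10.49 and 10.43 under HCD, neither with overlap. Their part in the differences of HCD and Control given for the Cyp2b genes and the CAR and PXR targets was not tested. For the Cyp2b genes, values without pool C are given where they change a call. For other genes they are given only in part, so a call without such a value may not hold without pool C.

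Cyp2b9 spanned almost all of its range in liver alone. The liver levels in pools A, B and C were 5.28, 5.17 and 5.62 under Control and 8.71, 7.88 and 9.08 under HCD. They were 6.41, 6.07 and 6.96 under HCD+Gl-1, 5.34, 5.45 and 5.37 under HCD+Gl-2, and 8.53, 7.47 and 8.52 under HCD+Sim. In order of the means, HCD came first with 8.56 ± 0.62 (SD, n = 3), followed by HCD+Sim with 8.17 ± 0.61, HCD+Gl-1 with 6.48 ± 0.45, HCD+Gl-2 with 5.39 ± 0.06 and Control with 5.36 ± 0.24. The arrays of HCD and HCD+Sim overlapped, and so did those of HCD+Gl-2 and Control, whereas HCD+Gl-1 lay apart from the groups on either side of it.

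**Figure D1:**
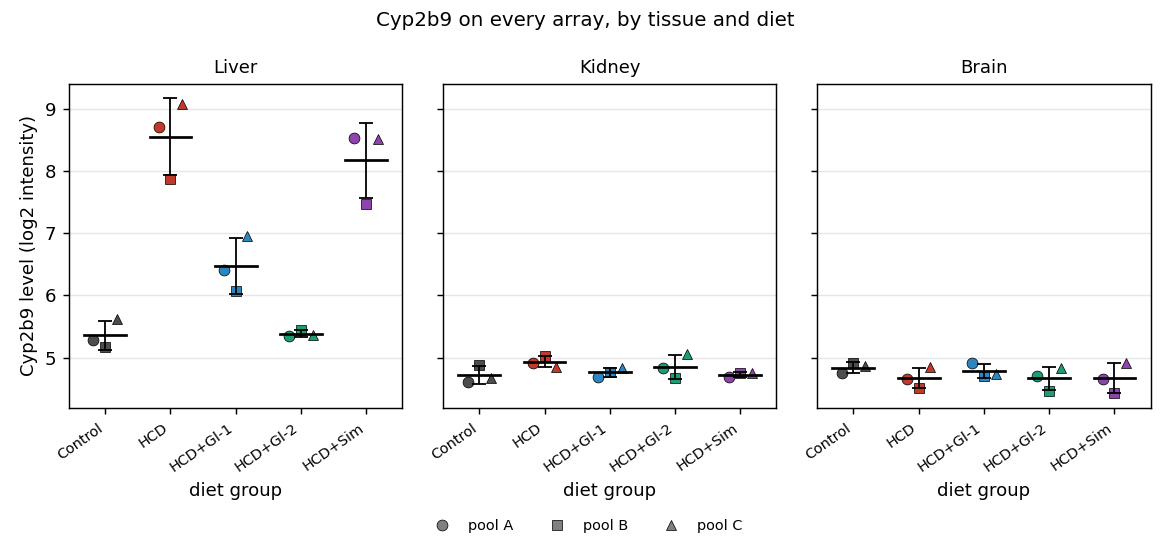
Level of Cyp2b9 (vertical axis, log2 intensity) on the 45 arrays by tissue and diet group, with circles, squares and triangles for pools A, B and C, long bars for means and whiskers for the SD of 3 arrays. Liver ranges from 5.17 to 9.08, with HCD and HCD+Sim high and HCD+Gl-2 at the level of Control, and kidney and brain stay between 4.43 and 5.06.

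As a description, the Cyp2b9 mean was 3.20 higher (log2) under HCD than under Control. No background level is given for these arrays, so differences from groups at the low levels of Control and HCD+Gl-2, near those of kidney and brain, are not read as exact folds. Against HCD the mean was 2.08 lower with Gl-1, 3.17 lower with Gl-2 and 0.38 lower with simvastatin. Against Control it was 1.12 higher with Gl-1, 0.03 higher with Gl-2 and 2.82 higher with simvastatin. Cyp2b9 and Cyp2b10 were the members whose HCD and Control arrays did not overlap, 2 of 5, against 14.9% of all genes in that comparison, a count from which nothing is read because it uses the arrays that chose the family. Tissue pieces hold several cell types, and fewer cells of a type and less RNA per cell cannot be told apart in these arrays. The summed level of 6 hepatocyte markers lay between 15.73 and 15.82 on all liver arrays.

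The 3 treated groups share no array with the difference of HCD and Control, and among them all 3 pairs were tested (limma, Benjamini-Hochberg over 22080 genes). A gene was called differentially expressed (DE) where its log2 difference exceeded 0.7 in size and its adjusted p did not exceed 0.05. Cyp2b9 was DE in all 3 pairs. Cyp2b9 was chosen for its diet effect in liver with the results of all diets known, and it also ranked first by its range over the 5 liver diets, so these p-values, and those of the tissue differences built on the same arrays, are not independent of the choice. The intervals, p-values and calls of Cyp2b9 are therefore given as a description and not as support. With Gl-2 its level was 1.09 lower than with Gl-1 (SE 0.21, 95% confidence interval -1.52 to -0.66, adjusted p 0.00275), in a pair where 38 genes or 0.172% were DE. Simvastatin left Cyp2b9 1.70 higher than Gl-1 did (interval 1.26 to 2.13, adjusted p 5.48e-06), where 0.249% of genes were DE, and 2.79 higher than Gl-2 did (interval 2.36 to 3.22, adjusted p 3.66e-11), where 0.285% were. The latter was the largest absolute log2 difference of any gene in that pair. These intervals and p-values rest on a spread shared by the groups of liver, kidney and brain. The median SD of Cyp2b9 was 0.45 over the liver groups, against 0.16 over the groups of all tissues. For liver the intervals are therefore likely too narrow and the p-values too low. For Cyp2b10, tested below in the same way, the median SD was 0.29 in liver and 0.14 over all tissues. In each of the 3 pairs the Cyp2b9 arrays of the groups did not overlap. Of all genes, 15.1% did not overlap in Gl-2 against Gl-1. That share was 16.0% for simvastatin against Gl-1 and 12.6% for simvastatin against Gl-2.

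The call between the 2 extracts depended on the arrays and on the fit. Without pool C of HCD+Gl-1, the highest array of that group, the difference was -0.85 (adjusted p 0.0764, limma), and with pools A and B alone it was -0.84 (adjusted p 0.146). A fit on the 15 liver arrays gave adjusted p 0.195 and a fit on the 6 arrays compared gave 0.381, where the difference of simvastatin and Gl-1 had 0.0973. Simvastatin against Gl-2 stayed DE in every alternative run, with differences of 2.61 to 3.14 when single arrays were left out. Pool C of HCD+Sim, with little pancreas and muscle transcript, had Cyp2b9 at 8.52, against 8.53 and 7.47 in the pools that carried more of it.

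Cyp2b9 stayed low on every diet in kidney and brain. Kidney means lay between 4.72 and 4.93 and brain means between 4.67 and 4.84, so that the 5 diets differed by at most 0.21 and 0.17, against 3.20 in liver. Over the 20 diet pairs of kidney and brain none of the 5 members was DE in 100 tests by limma, and 3 had an unadjusted p under 0.05, while 0.0817% of all gene tests in these pairs were DE. Arrays did not overlap in 13 of the 100 tests, against 14.8% over all genes.

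Whether the Cyp2b9 responses differed between tissues was tested directly, as a difference of 2 differences in the same fit. Because Cyp2b9 was chosen for its diet effect in liver, these p-values are not independent of that choice either and are given as a description. They also rest on the spread shared by all tissues, which is smaller than that of most liver groups. The simvastatin minus Gl-2 difference was 2.91 larger in liver than in kidney (SE 0.30, adjusted p 1.17e-07, limma), where 0.231% of genes were DE, and 2.79 larger than in brain (adjusted p 7.69e-07), where 0.0498% were. The simvastatin minus Gl-1 difference was 1.73 larger in liver than in kidney (adjusted p 0.00422, 0.240% of genes DE) and 1.81 larger than in brain (adjusted p 0.00213, 0.267% DE). For Gl-2 minus Gl-1 the liver difference was 1.18 below that of kidney (adjusted p 0.0913, 0.0951% of genes DE) and 0.97 below that of brain (adjusted p 0.0997, 0.213% DE), which did not pass. Without pool B of HCD+Gl-1 in liver, these last 2 values were -1.39 (adjusted p 0.00784) and -1.18 (adjusted p 0.0142) and passed. None of the other 4 members was DE in these 6 tests, with a lowest adjusted p of 0.206 and 1 of 24 tests at an unadjusted p under 0.05.

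**Figure D2:**
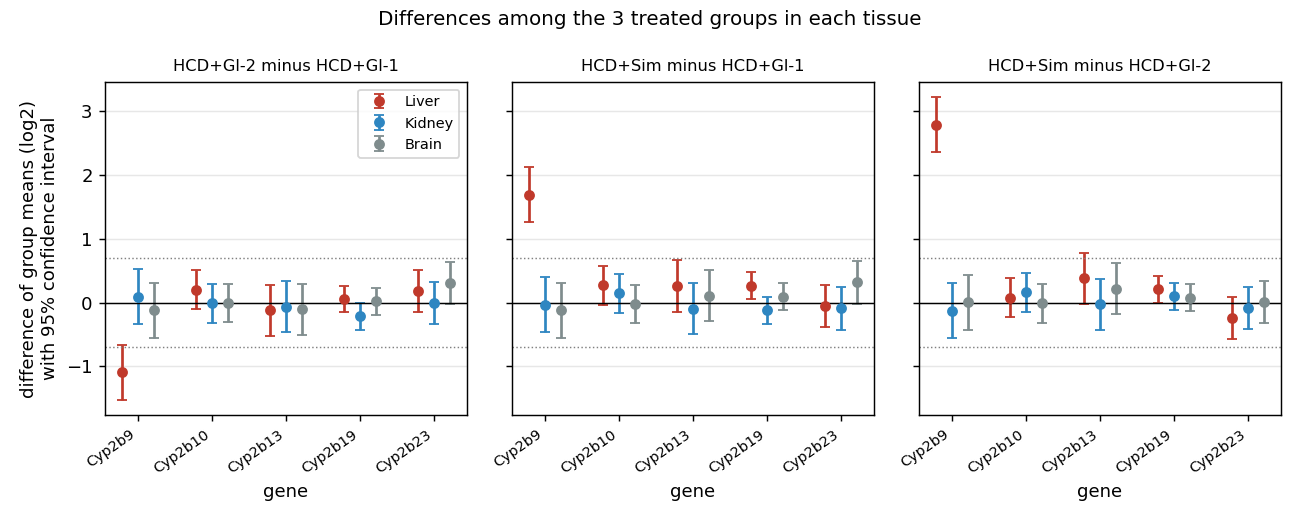
Differences among the 3 treated groups (vertical axis, log2, points with 95% confidence intervals) for the 5 genes in liver (red), kidney (blue) and brain (grey). Dotted lines stand at the threshold of 0.7 on either side of 0. Liver Cyp2b9 lies beyond it in each pair, at -1.09, 1.70 and 2.79, and all other points lie between the lines.

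Cyp2b10, the classical CAR target, spanned a smaller range than Cyp2b9 in the same livers. Its liver levels in pools A, B and C were 6.25, 6.04 and 6.44 under Control and 7.20, 6.70 and 7.41 under HCD, a described difference of 0.86. They were 6.33, 6.24 and 6.65 under HCD+Gl-1, 6.78, 6.28 and 6.76 under HCD+Gl-2, and 6.69, 6.32 and 7.03 under HCD+Sim. All 3 treated means thus lay between those of Control and HCD, and pool B was the lowest array of all 5 groups.

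Against HCD, whose arrays also served in choosing the family, Cyp2b10 was 0.69 lower with Gl-1 (SE 0.15, interval -0.998 to -0.389, adjusted p 0.00726, limma), just short of the fold threshold and so not DE, where 0.163% of genes were. It passed without pool B of HCD (-0.90, adjusted p 0.00105) or without pool C of HCD+Gl-1 (-0.82, adjusted p 0.00716). With Gl-2 the difference from HCD was -0.50 (interval -0.80 to -0.19, adjusted p 0.0885, 0.303% of genes DE). Simvastatin gave -0.42 (interval -0.73 to -0.12, adjusted p 0.198, 0.258% DE).

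No pair of treated groups passed the test for Cyp2b10. Gl-2 minus Gl-1 was 0.20 (interval -0.11 to 0.50, adjusted p 0.497, limma), simvastatin minus Gl-1 was 0.27 (interval -0.03 to 0.58) and simvastatin minus Gl-2 was 0.07 (interval -0.23 to 0.38). So Gl-2, under which Cyp2b9 was lowest of the treated groups, had a Cyp2b10 mean above that of Gl-1, although that difference was within the error. Against Control the treated groups were 0.16 to 0.43 higher in Cyp2b10, with a lowest adjusted p of 0.164. Among the diet groups of kidney, the HCD arrays of Cyp2b10 at 6.23, 6.38 and 6.21 lay above the Control arrays at 5.72, 5.97 and 5.92. The difference of 0.41 did not pass (adjusted p 0.774, limma), and 13.2% of all genes did not overlap in that comparison.

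**Figure D3:**
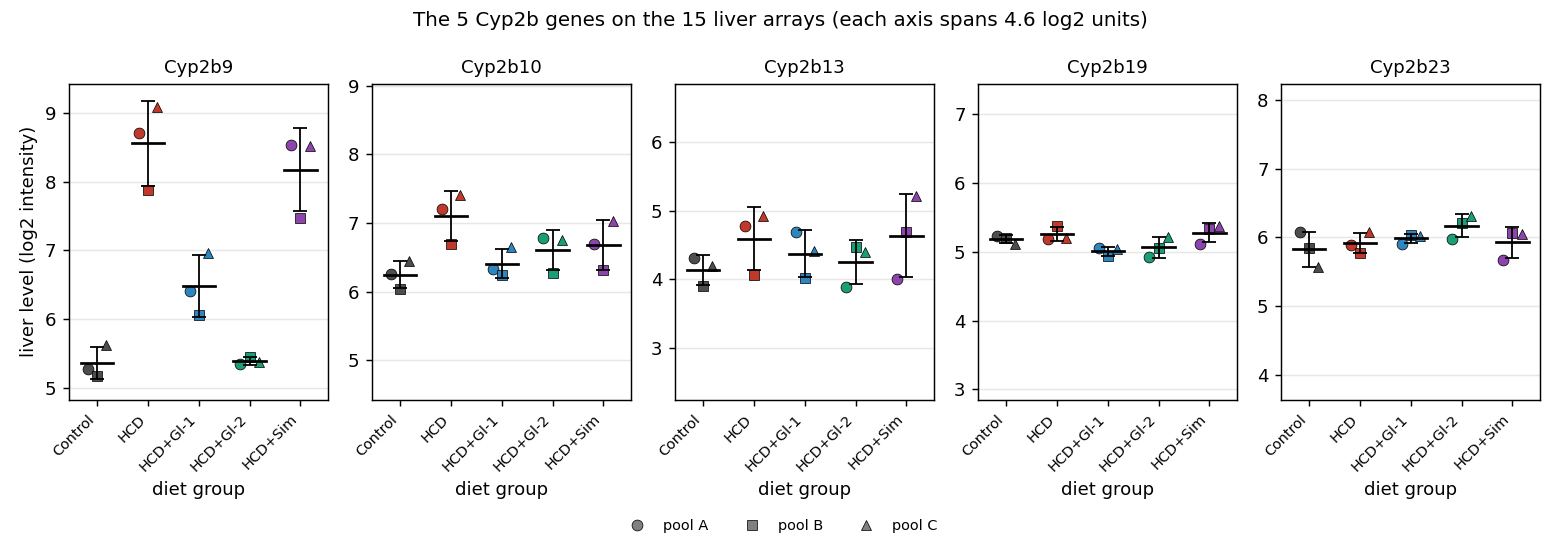
Liver levels (vertical axes, log2 intensity, each spanning 4.6 units around its own middle) of the 5 genes in the 5 diet groups, with circles, squares and triangles for pools A, B and C, long bars for means and whiskers for the SD of 3 arrays. Means of Cyp2b9 span 3.20 and those of Cyp2b10 span 0.86, while Cyp2b13, Cyp2b19 and Cyp2b23 span 0.50 or less.

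Cyp2b13, near-identical to Cyp2b9 before its start, stayed low. Its liver means were 4.14 under Control, 4.59 under HCD, 4.38 with Gl-1, 4.25 with Gl-2 and 4.63 with simvastatin, an order of groups close to that of Cyp2b9 at a span of 0.50. The arrays of a group were wide apart, from 4.07 to 4.92 under HCD and from 4.01 to 5.22 under HCD+Sim, so that all neighbouring groups overlapped. The largest tested difference was that of simvastatin and Control, 0.50, which was not DE but passed at 0.81 (adjusted p 0.0185, limma) when pool A of HCD+Sim was left out.

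Cyp2b19, the keratinocyte gene, had liver means between 5.01 with Gl-1 and 5.28 with simvastatin, arrays from 4.92 to 5.38. Its largest liver difference was that of simvastatin and Gl-1, 0.27 (adjusted p 0.129, limma). Cyp2b23 had liver means from 5.83 under Control to 6.17 with Gl-2, a difference of 0.34 that was not DE. In kidney under HCD its pools A, B and C read 5.30, 6.50 and 5.68, the widest spread of that gene in any group.

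Across the 9 liver comparisons other than HCD with Control, none of Cyp2b10, Cyp2b13, Cyp2b19 and Cyp2b23 was DE in 36 tests by limma. Of these, 1 had an adjusted p of at most 0.05 and 10 an unadjusted p under 0.05. In the 3 comparisons with Control, 0.322% of all genes were DE with Gl-1, 0.584% with Gl-2 and 0.358% with simvastatin. The span of the 5 liver means ranked Cyp2b9 first of the 22080 genes, Cyp2b10 at place 169, Cyp2b13 at 783, Cyp2b23 at 3171 and Cyp2b19 at 6884, where the median gene spanned 0.21. The median SD over the liver groups was 0.45 for Cyp2b9, 0.29 for Cyp2b10, 0.34 for Cyp2b13, 0.10 for Cyp2b19 and 0.17 for Cyp2b23, against 0.11 for the median gene.

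Between tissues on the Control diet, the family differed little. Cyp2b10 was 0.38 higher in liver than in kidney (adjusted p 0.0366, limma) and 0.56 higher than in brain (adjusted p 0.00127). Cyp2b19 was 0.36 higher in liver than in brain (adjusted p 0.00215). None of these reached the fold threshold, so none of 4 members was DE between liver and kidney, liver and brain or kidney and brain, where 16.8%, 32.7% and 30.0% of all genes were, and 4 of the 12 tests had an unadjusted p under 0.05. Cyp2b9, given without a test because the Control livers helped to choose it, was 0.64 higher in liver than in kidney and 0.52 higher than in brain, and its lowest liver array, at 5.17, lay above the highest kidney array, at 5.06.

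The machinery around the family was followed with gene lists. Of 12 genes of the CAR and PXR axis, none was DE between HCD and Control (0.245% of all genes were), in any treated group against HCD or in any pair of treated groups. CAR itself (Nr1i3) read 10.44, 10.27 and 10.41 under HCD and 10.81, 10.59 and 11.02 with Gl-2. Its arrays did not overlap, and neither did those of 15.2% of all genes in that comparison. Its difference of 0.43 had an adjusted p of 0.0431 (limma) but was below the fold threshold. PXR (Nr1i2) differed by 0.13 in that comparison (adjusted p 0.668). The group with the lowest Cyp2b9 among the treated, HCD+Gl-2, had the highest mean of Nr1i3. That mean was not DE against Gl-1 (adjusted p 0.215, limma) or against simvastatin (adjusted p 0.226, limma), whose arrays overlapped those of Gl-2. Whether the level of CAR had a part in that of Cyp2b9 was not tested.

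Against Control, 3 of the 12 axis genes were DE with Gl-2, all higher, where 0.584% of all genes were DE. These were Por, which passes electrons to microsomal cytochromes P450, by 0.89, Alas1, the first enzyme of haem synthesis, by 0.83, and the transcription factor Tef by 0.71. With Gl-1 only Alas1 passed, by 0.73, where 0.322% of all genes were DE, and with simvastatin none of the 12 did, where 0.358% were. Leaving out pool B of Control or of HCD+Gl-2 took Tef below the threshold, at 0.59 and 0.68, and leaving out pool C of Control or of HCD+Gl-1 took Alas1 with Gl-1 to 0.65 and 0.70, as did a renewed quantile normalization, to 0.69. With pools A and B alone Alas1 with Gl-2 stood at 0.70 (adjusted p 3.70e-05) and missed the threshold.

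Of 33 known targets of CAR and PXR, 29 were measured. Under HCD 25 of 29 lay above their Control mean, with a median difference of 0.27 against -0.01 over all genes. Of the 29, 1 was DE, the exporter Abcc3, where 0.245% of all genes were. Against HCD 7 of 29 were above with Gl-1 (median -0.07, against -0.01 over all genes) and 7 with Gl-2 (-0.06, against 0.01). With simvastatin 15 were above (0.01, against 0.03). No target was DE against HCD with any treatment, where 0.163% of all genes were with Gl-1, 0.303% with Gl-2 and 0.258% with simvastatin. Abcc3 read 9.74, 9.69 and 9.67 under Control, 10.87, 10.70 and 10.75 under HCD, and 10.88, 10.64 and 10.80 with Gl-2. Its arrays under Gl-2 thus lay among those of HCD, where those of Cyp2b9 lay among those of Control. Against Control it was DE with Gl-1, Gl-2 and simvastatin, by 0.71, 1.07 and 1.21, and the call with Gl-1 was lost without pool C of Control (0.70) or pool A of HCD+Gl-1 (0.67).

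The female-predominant liver genes, among which Cyp2b9 and Cyp2b13 are counted by background, did not move as one under HCD. Of 21 measured female-predominant genes 11 were above their Control mean under HCD, with a median difference of 0.02 against -0.01 over all genes. Of the 21, 2 were DE higher (Cyp3a41b and Cyp3a44) and 2 lower (Cyp17a1 and Abcd2), where 0.245% of all genes were DE. Cyp3a41b and Cyp3a44, a pair of steroid-oxidising P450 genes, were 1.42 and 1.21 higher under HCD than under Control. Unlike Cyp2b9 they were still DE above Control with Gl-2, by 0.83 (adjusted p 0.00117, limma) and 0.87 (adjusted p 0.00508). The call of Cyp3a41b was lost without pool C of Control (0.56) or pool A of HCD+Gl-2 (0.70), and that of Cyp3a44 without pool B of Control (adjusted p 0.0804). With pools A and B alone neither passed (adjusted p 0.0612 and 0.0898). Whether they and Cyp2b9 differ in response was not tested. The muscle and squamous transcript of the Control arrays stood beside these differences, and Cyp17a1 read 8.62, 9.13 and 7.55 and Abcd2 7.05, 7.47 and 6.41 there, lowest in the pool with the least squamous transcript, whose part in these differences was not tested.

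Against HCD, Hamp2, a hepcidin gene, was the only female-predominant gene DE with the extracts, by -0.75 with Gl-1 and -1.12 with Gl-2. With simvastatin it fell by 1.04 while Acot3 rose by 0.89. In these comparisons of Gl-1, Gl-2 and simvastatin with HCD, 0.163%, 0.303% and 0.258% of all genes were DE. The Gl-1 call of Hamp2 was lost without pool B of HCD (-0.69) or without pool A (-0.60) or C (-0.75) of HCD+Gl-1, and that of Acot3 without pool A (0.85) or B (0.80) of HCD or pool A (0.75) or C (0.78) of HCD+Sim. Of 19 measured male-predominant genes 5 were above their Control mean under HCD (median -0.06, against -0.01 over all genes). Against HCD 16 were above with Gl-1 (median 0.13, against -0.01), 11 with Gl-2 and 10 with simvastatin. Against Gl-1, 3 were above with Gl-2 (median -0.24, against 0.02) and 4 with simvastatin (median -0.18, against 0.05). Moxd1 was DE lower under HCD than under Control, by 2.34, where 0.245% of all genes were DE. It was DE higher than under HCD with both extracts, by 2.56 and 2.24. Cyp7b1, an oxysterol hydroxylase, rose by 0.98 with Gl-1. Moxd1 thus ran opposite to Cyp2b9 in these groups, but its arrays under HCD+Sim read 9.84, 10.05 and 6.41.

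In the pairs of treated groups in which Cyp2b9 was DE, none of the CAR and PXR targets, the 10 growth hormone axis genes or the 7 measured neighbours on the chromosome was DE. Of all genes, 0.172% were DE in Gl-2 against Gl-1, 0.249% in simvastatin against Gl-1 and 0.285% in simvastatin against Gl-2. The female-predominant Prlr was DE in simvastatin against Gl-1, by 0.74, and the male-predominant Moxd1 by -1.61, and Elovl3 was DE in simvastatin against Gl-2, by 0.70. Each of these calls was lost with 1 array less: Prlr without pool B of HCD+Gl-1 (0.68) or pool C of HCD+Sim (0.65), Moxd1 without pool A (-1.60) or C (-1.60) of HCD+Gl-1 or pool C of HCD+Sim (-0.43), and Elovl3 without pool B of HCD+Gl-2 (0.58) or pool A (0.65) or B (0.53) of HCD+Sim. Among the neighbours Cyp2a22, a P450 gene of the same region, was DE higher than Control under HCD, by 0.95, and with simvastatin, by 1.16, where the call was lost without pool C of HCD+Sim (0.79). The other 6 neighbours were not DE in any of the 10 liver comparisons, where 0.163% to 0.584% of all genes were. In the growth hormone axis, the transcription factor Onecut1 was DE above Control with Gl-1, by 0.87, and with Gl-2, by 0.86, and the signalling inhibitor Cish with Gl-2, by 0.82, whereas none of its genes was DE against HCD or between HCD and Control. Against Control, 0.322% of all genes were DE with Gl-1 and 0.584% with Gl-2.

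**Figure D4:**
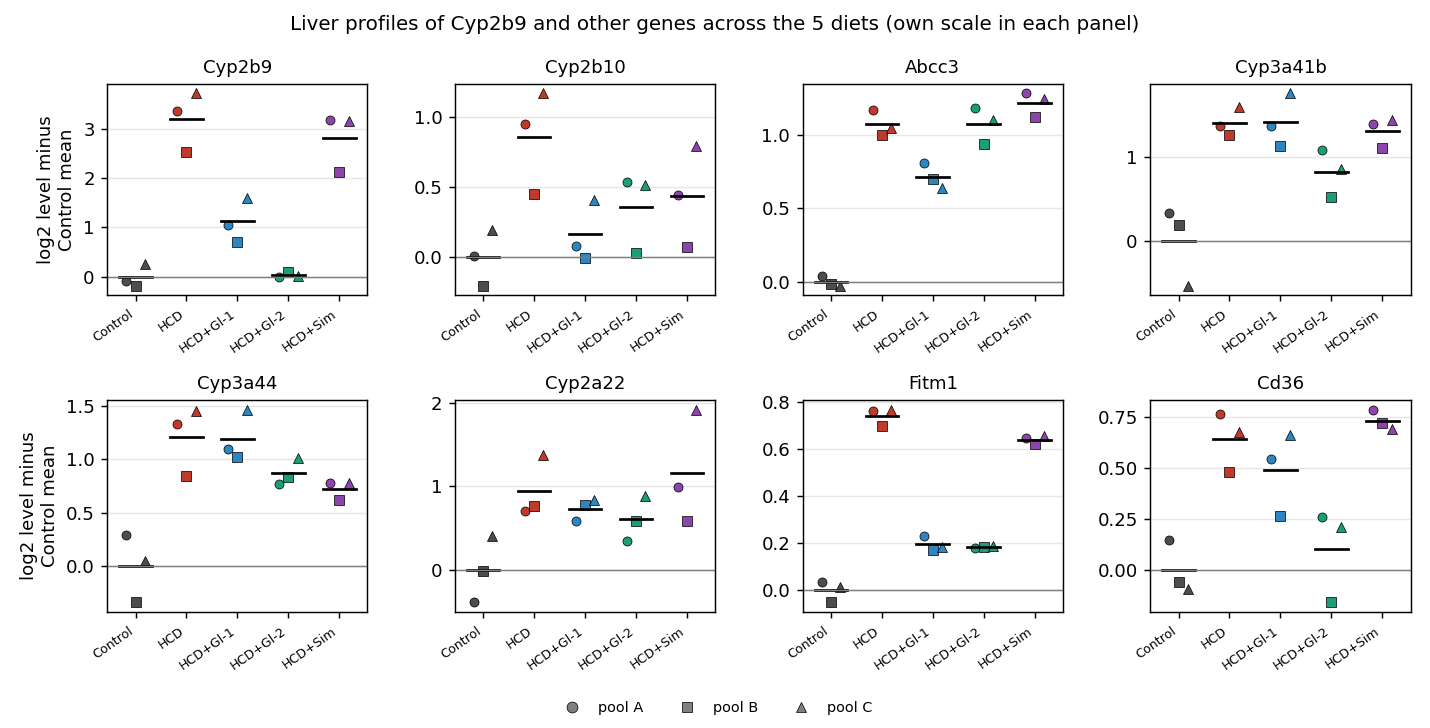
Liver level minus the Control mean of the same gene (vertical axes, log2, own scale in each panel) of Cyp2b9, Cyp2b10 and 6 other genes in the 5 diet groups, with circles, squares and triangles for pools A, B and C and bars for means. Gl-2 brings Cyp2b9 to 0.03 above Control while Abcc3 stays 1.07 above it, and Fitm1 shows the same high and low groups as Cyp2b9 on a smaller scale.

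Over the 15 liver arrays the profile most like that of Cyp2b9 was that of Fitm1, a gene of lipid droplet formation (Pearson r 0.94, Spearman rho 0.89). Next to it were Ddah1 (r 0.89), Cryz (0.88), Cd36 (0.86), Krt23 (0.85), Heatr6 (0.83) and Dlc1 (0.82). These values describe 15 arrays in 5 diet groups that share tissue and normalization, and no p is given. Fitm1 read 10.68, 10.62 and 10.69 under HCD and 10.57, 10.54 and 10.58 with simvastatin, but 10.15, 10.09 and 10.10 with Gl-1 and 10.10, 10.10 and 10.11 with Gl-2. Its 2 extract groups were therefore at 1 level, whereas Cyp2b9 stood at 6.48 with Gl-1 and 5.39 with Gl-2. Cd36, a fatty acid transporter, had means of 8.55 with Gl-1 and 8.17 with Gl-2, in the order of Cyp2b9.

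The nearest profiles to Cyp2b10 were those of Igfbp3 (r 0.87), Fam13a (0.86), Ces1e (0.84), Aldh7a1 (0.84) and Hadh (0.84), none of which was among the 8 of Cyp2b9. For Cyp2b13 they were Gm9912 (0.85), Lrrn4 (0.84), Wdr13 (0.82), Mrgpra1 (0.82) and Prl7a2 (0.81). Within the family, Cyp2b9 and Cyp2b10 had r 0.73 over the 15 arrays, Cyp2b9 and Cyp2b13 0.55, and Cyp2b9 and Cyp2b23 -0.19. Over the 5 group means the value for Cyp2b9 and Cyp2b13 was 0.97.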

How the data were processed

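The authors hybridised pooled RNA to Affymetrix Mouse Gene ST v1.0 arrays, corrected background with RMA, applied quantile normalization and ComBat, and kept 1 probe set per gene by interquartile range. The batches that ComBat adjusted are not named in the sources used here, nor is the genome build. The deposited log2 values were used as they are. Tissue, diet and pool came from the sample labels. The paper's methods describe liver and kidney, and brain was taken from the labels.

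The 45 arrays entered a single limma 3.58.1 fit (R 4.3.3) with a mean for each of 15 groups, empirical Bayes moderation and Benjamini-Hochberg adjustment over 22080 genes within each comparison, after a test on simulated data. An exact permutation test of 3 arrays against 3 cannot give p under 0.1. Figures used Python 3.11.15 and matplotlib 3.10.9.

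The members, gene lists and tests were chosen with earlier results of these data known. Named genes are the members, up to 5 DE genes per list and comparison (Nr1i3 and Nr1i2 always), and the 8, 5 and 5 genes most like Cyp2b9, Cyp2b10 and Cyp2b13, of which 1 is not reported here. Lists covered the CAR and PXR axis and targets, sex-predominant liver genes, the growth hormone axis, chromosome neighbours and markers of 9 tissues or cell types. Cholangiocyte markers summed to 9.33 to 9.68 on the liver arrays. Alternatives were a fit on 1 tissue or on the groups compared, leaving pool C out, a replicate block, a filter on dim genes, renewed quantile normalization, trend and robust moderation, no fold threshold and leaving out single arrays.

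Over all genes, samples with the same pool letter had a median correlation of deviations of 0.07 in liver, -0.001 in kidney and -0.03 in brain (30 pairs each). In liver it was -0.04 for different letters. Of the 30 pairs with the same letter, 12 were over 0.1 in liver, 3 in kidney and 7 in brain. Pool B was the lowest liver array in 4 of 5 groups for Cyp2b9 and in 5 of 5 for Cyp2b10. The main fit did not pair samples by letter, and the replicate block was run as an alternative.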

Additional observations from a re-analysis of the deposited data

Results flagged for a closer look

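With 3 arrays in each group no search for single outlying arrays was made. The 4 results listed here were marked because the response of Cyp2b9 in liver differed from that in another tissue by a test of the difference itself. That test is not independent of the choice of Cyp2b9, which was made for its diet effect in liver, so the mark is a description. Simvastatin minus Gl-1 was 1.73 larger in liver than in kidney and 1.81 larger than in brain. Simvastatin minus Gl-2 was 2.91 larger in liver than in kidney and 2.79 larger than in brain. The part of the pancreas and muscle transcript of the HCD+Sim livers in these differences was not tested, and Cyp2b9 read 8.52 in the HCD+Sim pool that held the least of it.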

How the results depend on the processing

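Cyp2b9 simvastatin minus Gl-2 in liver, and its excess over kidney and brain, kept their direction and call in every alternative run, of which the filter on dim genes is no check, since Cyp2b9 passes it through the liver groups where it is high. Gl-2 minus Gl-1 in liver kept its direction but lost its call with pools A and B only (-0.84, adjusted p 0.146), with the liver arrays only (-1.09, adjusted p 0.195) and with the compared arrays only (-1.09, adjusted p 0.381). With the compared arrays only, simvastatin minus Gl-1 also lost its call in liver (1.70, adjusted p 0.0973), against kidney (1.73, adjusted p 0.121) and against brain (1.81, adjusted p 0.0923). With the pool letter as a replicate block the liver minus kidney value of Gl-2 minus Gl-1 passed (-1.18, adjusted p 0.0341), and the block changed no other call among these results. Without the fold threshold Cyp2b10 Gl-1 minus HCD passed (-0.69). The fit on liver arrays only ended the calls of Moxd1 against HCD (adjusted p 0.123 with Gl-1 and 0.191 with Gl-2), Hamp2 with simvastatin against HCD (0.0596), Onecut1 (0.0699 and 0.0568) and Cish (0.0711) against Control. The main fit shares its spread over all tissues, whereas the fit on liver arrays does not. The part of this in these moves was not tested, nor were other causes.

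For Cyp2b9 Gl-2 minus Gl-1, leaving out single arrays gave -1.30 to -0.85 in liver. Its difference from kidney ranged from -1.39 to -0.94 and that from brain from -1.18 to -0.73. Cyp2b10 Gl-1 minus HCD ranged from -0.90 to -0.54. In the 9 liver comparisons other than HCD with Control there were 0 to 1 calls of Cyp2b13, Cyp2b19 and Cyp2b23. Cyp2b10 simvastatin minus Gl-2, not called, ranged from -0.10 to 0.26 and turned to -0.027 with pools A and B only, to -0.09 without pool B of HCD+Gl-2 and to -0.10 without pool C of HCD+Sim. Each tested difference of the other named genes was counted once for every alternative run. Of these counts, 344 kept their side of the threshold, 56 lost a call and 5 gained one.

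The filter on dim genes kept 2 of the 5 members, Cyp2b9 through liver HCD and HCD+Sim and Cyp2b10 through liver HCD, and gave no value for the others. Genes DE per liver comparison numbered 36 to 129, 242 to 902 without the fold threshold, 5 to 145 with pools A and B only, 0 to 84 with the liver arrays only, 0 to 65 with the compared arrays only and 25 to 164 with 1 array left out. The number of arrays and the weak signal of Cyp2b13 limit what can be detected here.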
